A study of Mus musculus with 6 samples.

Results

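Transcripts of 10 AP-1 and immediate early genes were examined in macrophages sorted from Day 3 skin wounds of young and aged mice. The genes were taken from the table of expected counts by exact match of the gene symbol, and all 10 were among its 15168 genes. They comprise the Fos family members Fos, Fosb and Fosl2, the Jun family members Jun, Junb and Jund, the related factor Atf3, the zinc finger factor Egr1, and the immediate early response genes Ier2 and Ier3. The young mice were 12 weeks and the aged mice 24 months old, all were female wild-type C57BL6/J, and the labels name no treatment other than wounding. Each mouse received 2 full-thickness wounds on the back, and the tissue was taken 3 days later. F4/80+ CD64+ cells were sorted from digested tissue straight into lysis buffer, and 3 young and 3 aged samples were sequenced, with 1 sample per age bearing each of the set letters A, B and C. The labels do not say what a set is, nor how many mice went into a sample, so p-values measure the spread between these samples, which may in part be technical.

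AP-1 is a dimeric transcription factor made of Jun and Fos family proteins, with ATF and Maf proteins as further partners. Its genes are immediate early genes: they are transcribed within minutes of a stimulus without new protein synthesis, from promoters already occupied by serum response factor, ternary complex factors and CREB, which MAP kinases phosphorylate, and the transcripts are short-lived. In macrophages they respond to inflammatory, stress and growth factor signals, and enzymatic digestion of tissue at body temperature is itself known to induce them together with heat shock genes.

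Library totals ran from 15270103 to 17927483 counts and scaling factors (TMM) from 0.904 to 1.11. Levels are given as CPM, counts scaled to the library's size, and the 10 genes together held between 0.778% and 1.15% of all counts. Over the 10 genes the lowest count in a sample was 225, for Fosb in aged A, and the highest was 97709, for Ier3 in aged C. All 10 genes passed the filter on low counts. Macrophage markers were present throughout, with Lyz2, encoding lysozyme, at 29833 ± 7889 CPM (SD, n = 3) in young samples and 18621 ± 2596 CPM in aged ones, and the monocyte and macrophage protein gene Cd68 at 1961 ± 179 and 1479 ± 94.6 CPM. Of 8 macrophage markers 4 had a positive log2 fold change; Itgam, encoding CD11b, was called higher (0.99, edgeR adjusted p = 0.00735) and Adgre1, encoding F4/80, lower (-0.69, adjusted p = 0.0292). Lymphocyte markers did not exceed 1.85 CPM in sum in any sample, and 1 aged sample, aged B, held keratinocyte transcripts (164 CPM in sum over 8 markers, against at most 2.10 CPM in the other 5 samples).

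Promoter bases are shown for 4 genes whose measurements below stand in contrast, Fos and Fosb (lower mean in aged samples), Jun (similar in both ages) and Ier3 (higher in aged samples). The sequences come from RefSeq (GRCm38.p6), in which 8 of the 10 genes were matched (Egr1 and Ier2 were not), and run 5′ to 3′ on the gene's strand from 120 bases before the annotated start down to the first base that no exon annotated by GENCODE covers. Capitals mark TGACG, the core of the cyclic AMP response element bound by CREB and ATF proteins, in Fos and Fosb, its extended relative TGACNTCA in Jun, and a kappaB motif, the sequence bound by NF-kappaB, in Ier3.
Fos, chr12:85473770-85473889, plus strand: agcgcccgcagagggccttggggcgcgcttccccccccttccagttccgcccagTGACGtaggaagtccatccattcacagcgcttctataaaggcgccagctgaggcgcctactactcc
Fosb, chr7:19310052-19310165, minus strand: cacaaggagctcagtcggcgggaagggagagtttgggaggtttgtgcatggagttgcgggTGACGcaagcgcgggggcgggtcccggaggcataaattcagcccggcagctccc
Jun, chr4:95052223-95052342, minus strand: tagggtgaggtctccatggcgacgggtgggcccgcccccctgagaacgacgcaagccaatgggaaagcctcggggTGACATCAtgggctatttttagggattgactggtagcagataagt
Ier3, chr17:35821593-35821683, plus strand: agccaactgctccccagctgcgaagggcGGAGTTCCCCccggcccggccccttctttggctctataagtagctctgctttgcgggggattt
Both strands of the 250 bases before the start were searched. TGACG was found in 4 of the 8 promoters, 66 to 62 and 129 to 125 bases before the start of Fos, 60 to 56 before Fosb, from 106 bases before Junb and 7 to 3 before Atf3, and in 17.8% of 32851 mouse promoters of this length. TGACNTCA was found in Jun alone, 45 to 38 bases before its start, and in 7.49% of all promoters. A kappaB motif was found in Fos, Fosb, Fosl2 and Ier3 and in 3.90% of all promoters, and lay 92 to 83 bases before the start of Ier3. The AP-1 motif TGANTCA was found in none of the 8 (6.75% of all promoters), nor was a CArG box, the serum response factor motif (1.47%). These counts describe the 250 bases only, and Egr1 and Ier2 were not searched. The starts used for Junb and Jund lie upstream of and outside the counted genes. TATAAA was found in Fos, 33 to 28 bases before its start, and in 12.4% of all promoters. The matches are descriptions of sequence and not measurements of binding.

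Fos family transcripts had lower means in aged samples for Fos and Fosb but not for Fosl2. Fos (chr12:85473890-85477273, mm10, plus strand), the founding member, was at 1923, 2789 and 1556 CPM in young A, B and C and at 1045, 1455 and 1893 CPM in aged A, B and C. The ages overlapped, since aged C lay above young C and just below young A. The fitted log2 fold change of aged against young was -0.51 (standard error 0.27, 95% interval -1.11 to 0.09), and it did not pass the test (quasi-likelihood test of edgeR over 11878 genes, Benjamini-Hochberg adjusted p = 0.206). Without young B it was -0.24.

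Fosb (chr7:19302696-19310051, minus strand) encodes a partner of Jun proteins that is transcribed at much lower levels. It was at 18.8, 43.1 and 24.2 CPM in young A, B and C, with 15.8, 14.7 and 16.3 CPM in aged A, B and C. All 3 aged samples were below all 3 young samples and lay close together, with a standard deviation of 0.075 in log2 CPM against 0.61 in the young samples, where young B stood highest. The log2 fold change of -0.88 (standard error 0.28, interval -1.5 to -0.26) did not pass the test (edgeR adjusted p = 0.0522). Without young B it was -0.45 (adjusted p = 0.180) and without young A -1.11 (adjusted p = 0.0123). Fosl2 (chr5:32135801-32157842, plus strand), which encodes the Fos-related protein Fra-2, was at 45.2, 72.0 and 54.6 CPM in the young samples and 53.9, 50.1 and 76.8 in the aged ones. The ranges of Fosl2 coincided, and its log2 fold change was 0.07 (interval -0.42 to 0.56, edgeR adjusted p = 0.844), with a sign that depended on the samples used.

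None of the 3 Jun family genes passed the test. Jun (chr4:95049034-95052222, minus strand), which encodes c-Jun, was at 602, 691 and 688 CPM in young samples, against 672, 700.3 and 794 CPM in the aged. Aged B and C lay above all young samples and aged A did not, and the log2 fold change was 0.13 (standard error 0.16, interval -0.24 to 0.49, edgeR adjusted p = 0.613). Jun overlaps the antisense gene Junos, which had a mean of 3.88 CPM in the young and 3.66 CPM in the aged samples, and whether the counting used strand is not given in the sources used here.

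Junb (chr8:84976910-84978718, minus strand), whose protein can oppose c-Jun on shared targets, was at 1797, 2042 and 1361 CPM in the young samples and 2531, 1269 and 1808 in the aged ones. Aged A was the highest and aged B the lowest of all 6, and the log2 fold change was 0.11 (standard error 0.26, interval -0.47 to 0.69, edgeR adjusted p = 0.801). Jund (chr8:70698949-70700616, plus strand), the least inducible Jun gene, was at 382, 537 and 526 CPM in young samples, against 507, 390 and 482 CPM in the aged. Its log2 fold change was -0.07 (interval -0.49 to 0.36, edgeR adjusted p = 0.834). The signs of Junb and Jund both turned when single samples were left out.

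Atf3 (chr1:191170296-191218039, minus strand) encodes a stress-inducible ATF family protein that restrains inflammatory transcription in macrophages. It was at 466, 1238 and 809 CPM in young A, B and C, with 318, 285 and 590 CPM in aged A, B and C. Young B and C lay above every aged sample, while young A lay below aged C, so the ages overlapped. The log2 fold change was -1.07 (standard error 0.36, interval -1.87 to -0.27), lower in mean than that of any other of the 10 genes, and it did not pass the test (edgeR adjusted p = 0.0634). Without young B it was -0.67 (adjusted p = 0.245) and without young A it passed as lower (edgeR adjusted p = 0.0153).

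Egr1 (chr18:34859823-34864984, plus strand), an early growth response factor induced through serum response factor, was at 86.6, 108 and 79.1 CPM in the young samples and 141, 86.3 and 254 in the aged ones. Aged A and C lay above the young samples and aged B did not. Its log2 fold change of 0.82 (standard error 0.33, interval 0.10 to 1.54) did not pass the test (edgeR adjusted p = 0.104). Ier2 (chr8:84661331-84662854, minus strand), which encodes a nuclear immediate early protein, was at 173, 156 and 153 CPM in young samples, against 269, 155 and 216 CPM in the aged. Aged B again lay among the young samples, and the log2 fold change was 0.41 (standard error 0.21, interval -0.05 to 0.87, edgeR adjusted p = 0.188). Dropping aged A moved it to 0.21 and dropping aged B to 0.61, with no call in either case.

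Ier3 (chr17:35821684-35822923, plus strand), also known as IEX-1, encodes a regulator of cell survival and is induced by NF-kappaB and stress signals. It was at 3763, 2863 and 2605 CPM in young A, B and C, with 6655, 4143 and 6035 CPM in aged A, B and C. All 3 aged samples were above all 3 young samples. Ier3 rose 1.82-fold (interval 1.27 to 2.62), a log2 fold change of 0.87 with a standard error of 0.24, and was the 1 gene of the 10 that passed the test (edgeR adjusted p = 0.0327). An exact two-sided permutation test on Ier3 gave p = 0.10, which is the smallest that 3 against 3 samples allow. Leaving out 1 sample gave Ier3 adjusted p-values of 0.0151 to 0.134, and the call was lost without young B, young C, aged A or aged C.

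**Figure D1:**
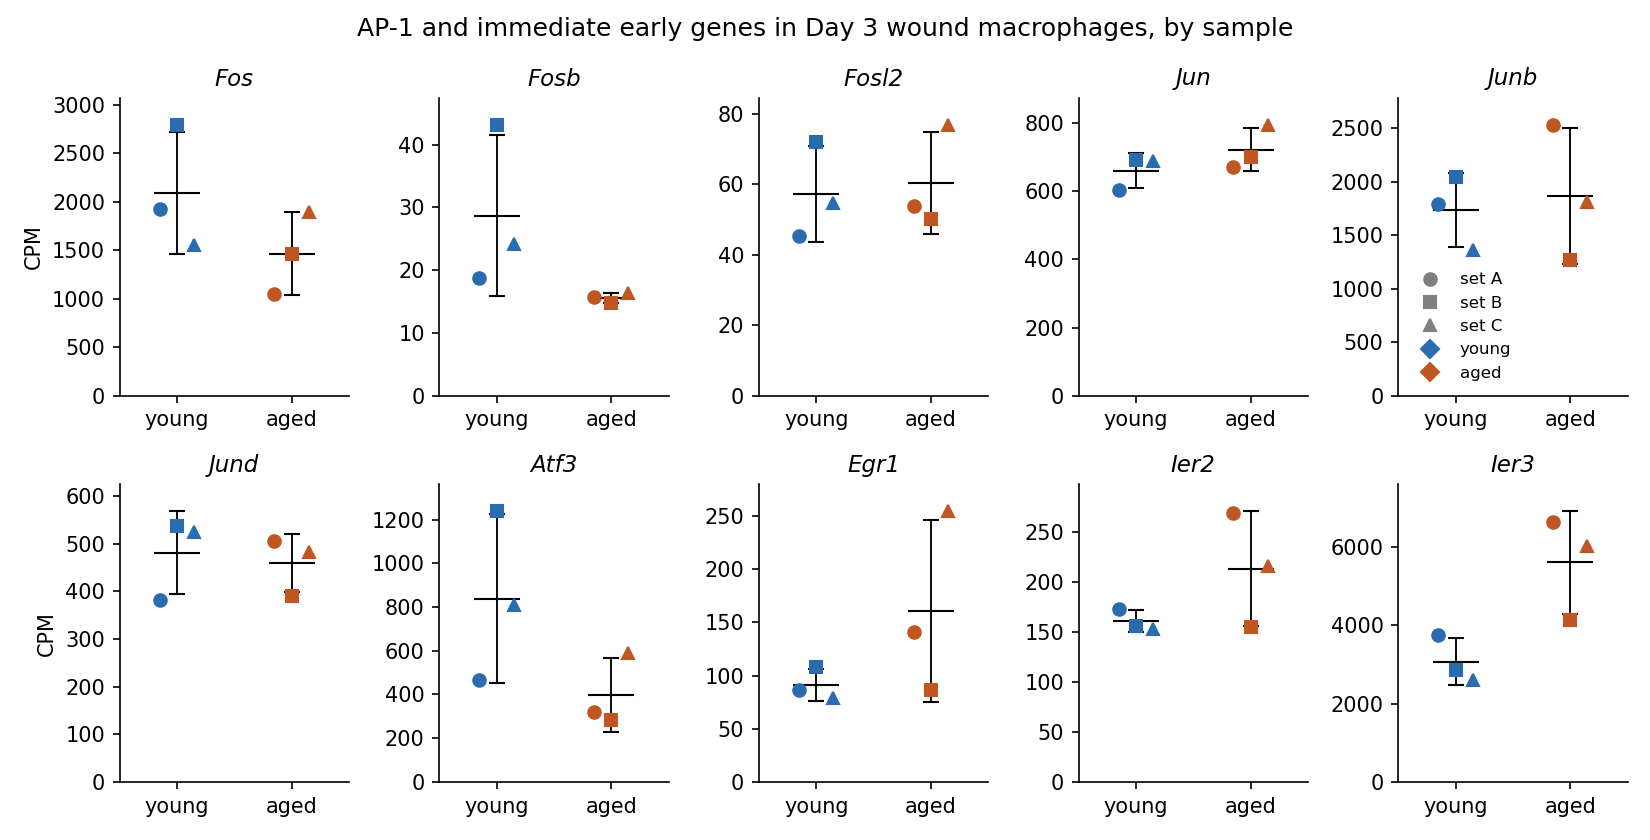
CPM (vertical axis, linear from 0) of the 10 genes in each sample, with young samples in blue, aged samples in orange and marker shape giving the set letter; bars are mean and SD of 3 samples. Ages are separate for Fosb (aged below young) and Ier3 (aged above young), and aged B lies lowest or near lowest among aged samples for Egr1, Ier2, Ier3 and Junb.

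Ier3 was thus 1 of 10 genes called higher at an adjusted p under 0.05, where 9.73% of all genes tested were, and 0 of 10 were called lower, against 7.97% of all genes. With a change of over 2-fold required as well, 0 of 10 were called in either direction, against 4.59% higher and 4.2% lower among all genes. At an unadjusted edgeR p under 0.05 there were 4, Ier3 and Egr1 higher and Fosb and Atf3 lower, against 4102 of the 11878 genes tested. DESeq2 and limma-voom each called these 4 genes at an adjusted p under 0.05, 2 higher and 2 lower, but those fits also called more genes in all, 20.3% and 30.7% of the genes with an adjusted p, either direction counted. Aged samples were all above the young ones for 1 gene of 10 (19.2% of all genes) and all below for 1 gene of 10 (19%). The median log2 fold change was 0.09 over the 10 genes and -0.02 over all genes tested, with 6 of the 10 above 0.

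The same values were also arranged by set letter, which the labels do not explain and which was not treated as a pairing. Within set B, 8 of the 10 genes had a lower value in the aged sample, among them Egr1 (log2 difference -0.32) and Junb (-0.69), which were higher in aged samples within sets A (0.70 and 0.49) and C (1.68 and 0.41). Atf3 was lower in the aged sample within each set, by log2 differences of -0.55, -2.12 and -0.45 in sets A, B and C. Fosb was also lower in each set (-0.25, -1.54 and -0.57), and for both genes the difference was widest in set B. Ier3 was higher in each set (0.82, 0.53 and 1.21). For Fosb and Ier3 these signs add nothing to the separation of the ages, since any matching of aged with young samples gives them.

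**Figure D2:**
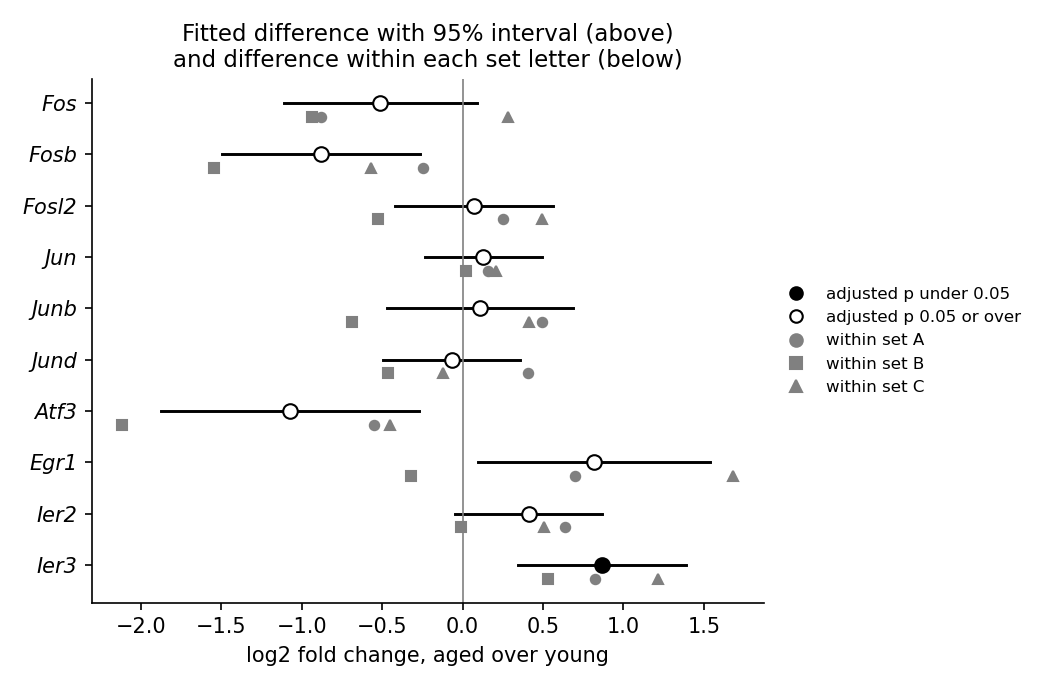
Log2 fold change of aged over young (horizontal axis) for each of the 10 genes, with the edgeR estimate and its 95% interval (circle and line, filled where adjusted p was under 0.05) and, beneath each, the difference between the aged and young sample of each set letter (grey shapes). The intervals of Fosb and Atf3 lie below 0, those of Egr1 and Ier3 above it, and the set B difference is the lowest of the 3 for every gene.

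Tissue dissociation was considered through genes that digestion is known to induce, since all 6 samples were digested and no undigested sample was analysed here. The 13 heat shock genes summed to 13002, 58180 and 78055 CPM in young A, B and C and to 9580, 54732 and 67899 CPM in aged A, B and C. Both set A samples were low and the other 4 were high, in either age, and within each set the aged sum was the lower one. That order came from Hspa1a and Hspa1b: the other 11 genes summed to 4205, 6931 and 10893 CPM in young A, B and C and to 3348, 14438 and 13995 CPM in aged A, B and C, higher in the aged sample of sets B and C and lower in that of set A. Hspa1a and Hspa1b, the inducible HSP70 genes, made up most of them, and their share of all counts was 0.978%, 5.58% and 6.65% in young and 0.583%, 3.95% and 4.87% in aged samples. These near-identical genes can share reads and were added together, and the lowest sum in sets B and C was 4.58 times the highest in set A.

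The same split held across the heat shock list. For 12 of its 13 genes both set A samples lay below the other 4, a pattern shown by 5.74% of all genes tested. Of the 10 AP-1 and immediate early genes, 1 showed it, Jun, whose 4 samples of sets B and C were at 688 CPM or more and whose set A samples were at 602 and 672 CPM. None lay above the other 4 in both set A samples, against 5.86% of all genes. Summed heat shock transcripts differed several-fold between set A and the other sets of the same age, though not every gene did. Without Hspa1a and Hspa1b the sum was 4205 CPM in young A and 6931 CPM in young B. In aged A and aged B it was 3348 and 14438 CPM. The summed level of the 10 genes, of which Ier3 was the largest part, ran from 7855 to 12209 CPM, with young A at 9258 and aged A at 12209 CPM. Single genes can differ from that sum: Atf3 was at 466, 1238 and 809 CPM in young A, B and C. In aged A, B and C it was at 318, 285 and 590 CPM. A relation between the heat shock genes and the 10 genes was not tested.

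**Figure D3:**
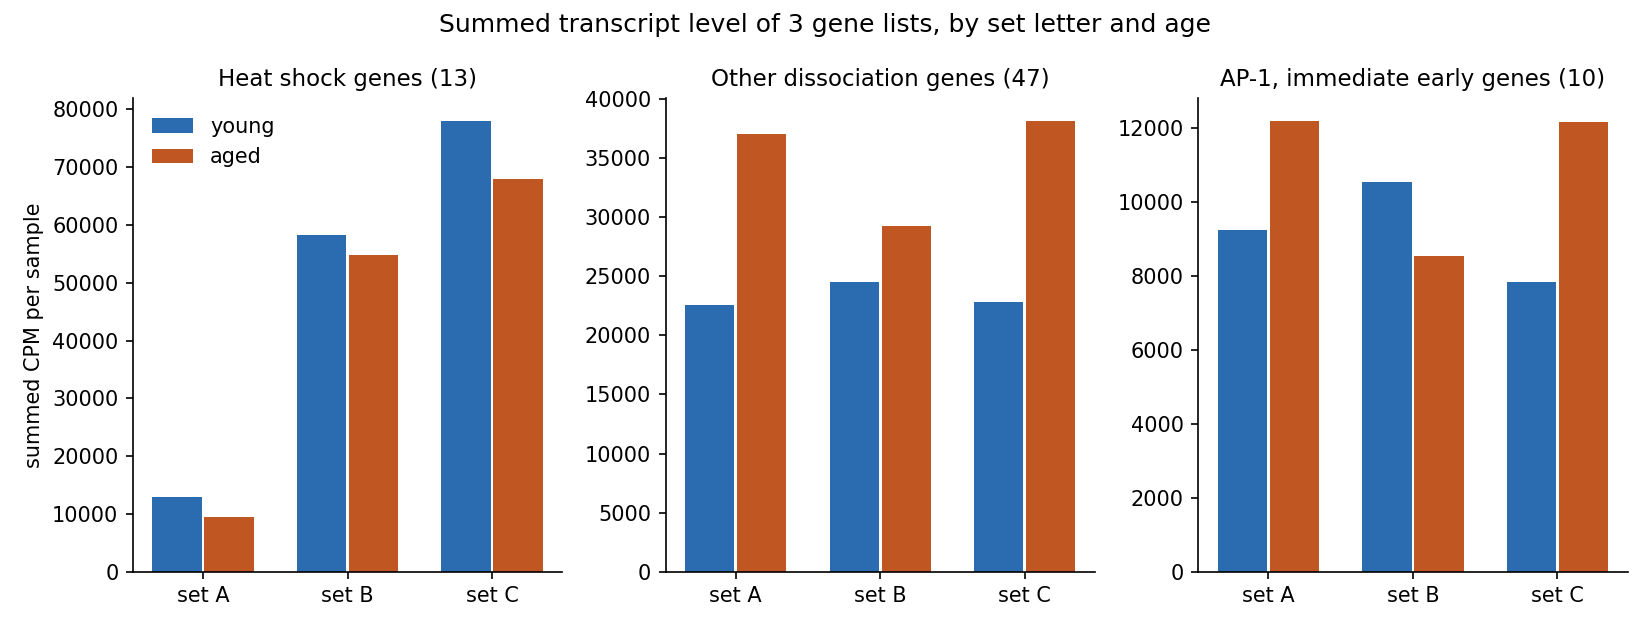
Summed CPM per sample (vertical axes, linear from 0, 1 bar per sample) of 13 heat shock genes, 47 other dissociation-associated genes and the 10 AP-1 and immediate early genes, arranged by set letter and age. Heat shock sums were 13002 and 9580 CPM in set A and 54732 CPM or more in sets B and C, whereas the other dissociation-associated genes summed higher in the aged sample of each set.

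By age, 0 of the 13 heat shock genes passed the edgeR test in either direction (9.73% of all genes tested were called higher and 7.97% lower). At an unadjusted p under 0.05 there was 1, against 4102 of the 11878 genes tested, and DESeq2 called 1 higher. The fitted log2 value for Hspa1a was -0.42 with adjusted p = 0.712 (standard error 0.72) and for Hspa1b -0.25 with adjusted p = 0.843 (0.76), and both turned sign without young C or aged A. When the difference of set A from sets B and C was added to the fit, the standard errors of several of the 10 genes shrank, that of Ier3 to 0.19 and that of Atf3 to 0.28. Ier3 kept its call (log2 fold change 0.87, adjusted p = 0.0105), and Fosb (-0.84, adjusted p = 0.0374) and Atf3 (-1.0, adjusted p = 0.0276) then passed as lower in aged samples in this edgeR fit. With both set A samples left out, 2 young against 2 aged, the edgeR adjusted p was 0.0248 for Ier3, 0.0120 for Fosb and 0.0191 for Atf3. Over all genes, 23.4% were called with the set A term and 24.7% without set A. Both fits were chosen after the heat shock values had been seen. The planned edgeR fit with the set letter as a block called neither Fosb (adjusted p = 0.0676) nor Atf3 (adjusted p = 0.0581).

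In the fit with set A as a term, 3 of the 13 heat shock genes were called higher in aged samples. That fit called 23.4% of all genes, either direction counted. The 3 were the HSP70 co-chaperones Bag3 (log2 fold change 0.71), Dnajb1 (0.79) and Dnajb4 (0.89), named here after their values were seen (edgeR adjusted p = 0.0413, 0.0452 and 0.0166). With both set A samples left out, 5 of 13 were called higher, with Dnaja1 and Hsph1 added, beside 24.7% of all genes, either direction counted. The part of heat shock or digestion in the age differences of Fosb, Atf3 and Ier3 was not tested.

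The other 47 dissociation-associated genes, none of which is among the 10 but 16 of which stand in other lists here, summed to 22553, 24542 and 22847 CPM in the young samples and 37057, 29279 and 38156 in the aged ones. Every aged sum was above every young sum. Of the 47, 15 passed the edgeR test as higher and 1 as lower (9.73% and 7.97% of all genes tested), and their median log2 fold change was 0.41. The largest rises were those of the chemokine genes Ccl3 (log2 fold change 2.15, adjusted p = 0.00127) and Ccl4 (1.60, adjusted p = 0.00398) and the cytokine signalling inhibitor Socs3 (1.73, adjusted p = 0.00898). Without young C 3 genes were called higher, and without aged C 7. Over all genes, either direction counted, 218 of 12219 were called without young C and 545 of 12245 without aged C. With all samples they were 2103 of 11878. Rgs2, a regulator of G protein signalling, fell (-1.31, adjusted p = 0.0258). Ccl3, Ccl4 and Socs3 are also genes of activated macrophages, so a response to digestion and one within the wound cannot be told apart here.

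Genes acting upstream of the 10 were read next. Of 27 tested MAP kinase pathway and promoter-bound activator genes, 21 had a positive log2 fold change, 7 were called higher and 0 lower (9.73% and 7.97% of all genes tested), and their median log2 fold change was 0.43. Map2k4, a kinase upstream of JNK and p38, was at 76.1, 33.5 and 49.9 CPM in young samples, against 136, 126 and 169 CPM in the aged, a rise of 1.44 (standard error 0.27, edgeR adjusted p = 0.0106). Map2k3, another kinase upstream of p38, rose by 1.13 (adjusted p = 0.0261), the ternary complex factor Elk4 by 1.0 (adjusted p = 0.0152) and the cAMP-responsive modulator Crem by 0.82 (adjusted p = 0.0250), all on the log2 scale in the edgeR test.

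Partners of AP-1 showed 4 genes higher and 0 lower of 13 tested, beside 9.73% and 7.97% of all genes, with a median of 0.52. Fosl1, which encodes Fra-1 and is the Fos family gene not among the 10, was at 66.9, 25.2 and 36.2 CPM in young A, B and C, with 171, 77.7 and 133 CPM in aged A, B and C. Every aged value of Fosl1 was above every young one, and it rose by 1.57 on the log2 scale (standard error 0.36, edgeR adjusted p = 0.0200). The small Maf gene Mafg rose by 1.03 (edgeR adjusted p = 0.0238). Atf4, the factor of the integrated stress response, had a log2 fold change of 0.45 (adjusted p = 0.0929).

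Other immediate early genes were called higher in 7 and lower in 0 of 27 tested, beside 9.73% and 7.97% of all genes, with a median of 0.41. Arc rose by 2.19 on the log2 scale from a mean of 0.881 CPM (edgeR adjusted p = 0.0122). Ptgs2, which encodes the prostaglandin synthase COX-2, rose by 1.24 from 399 ± 169 to 942 ± 388 CPM (adjusted p = 0.0367), and the antiproliferative gene Btg1 by 0.90 (adjusted p = 0.0166). Zfp36, encoding the mRNA decay factor tristetraprolin, had a log2 fold change of 0.41 (adjusted p = 0.155).

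Genes known as AP-1 targets were called higher in 9 and lower in 1 of 17 tested, beside 9.73% and 7.97% of all genes, with a median of 1.28. Mmp13, a collagenase gene, was at 31.1, 33.8 and 38.0 CPM in the young samples and 246, 141 and 293 in the aged ones. It rose by 2.73 on the log2 scale (standard error 0.26, edgeR adjusted p = 0.00127), with no overlap between ages. The cytokine gene Csf2 rose by 3.52 (adjusted p = 0.00623) from 0.277 CPM or less in each young sample, so the size of that fold rests on very few reads. Spp1, encoding osteopontin, fell by 0.86 (adjusted p = 0.0476), and Hmox1, encoding haem oxygenase, had a log2 fold change of 0.55 (adjusted p = 0.101). Set beside these lists, the 10 genes had the lowest median, and the difference between lists was not tested. All lists were chosen with earlier results of these data known, so their shares and medians are descriptions and not independent evidence. These counts depended on single samples, and without young C they were 0 higher for the partners, the other immediate early genes and the upstream genes, and 3 for the targets. Without young B they were 0, 3 and 1 for the former 3 lists, without aged C they were 1, 1 and 1, and without aged A the other immediate early genes were 4. Calls over all genes, either direction counted, fell in these fits too, from 2103 of 11878 with all samples. They were 218 of 12219 without young C and 765 of 12169 without young B. Without aged C they were 545 of 12245, and without aged A 1385 of 12248.

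**Figure D4:**
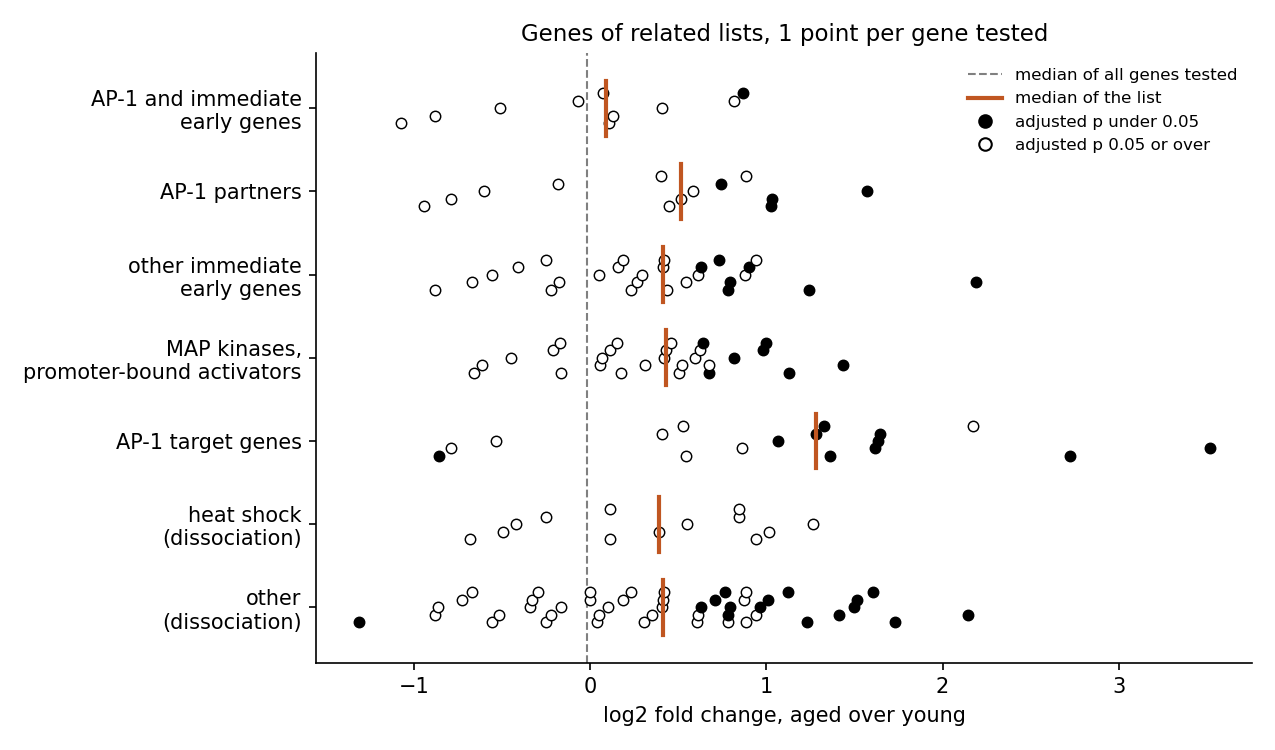
Log2 fold change of aged over young (horizontal axis) for each tested gene of 7 lists, filled where the edgeR adjusted p was under 0.05, with the list's median (orange bar) and the median of all genes tested (dashed line, -0.02). The 10 AP-1 and immediate early genes spread around 0 from -1.07 to 0.87, while the AP-1 target genes have a median of 1.28. All lists were chosen with earlier results of these data known.

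Dividing CPM by the length of the longest transcript allowed levels to be compared between genes. In young samples Ier3 was the most abundant at 2721 CPM per kb, followed by Fos (991) and Junb (958), whose ranges overlapped, then Atf3 (422) and Jund (289), which overlapped as well, then Jun (207), Ier2 (106) and Egr1 (20.3), each clear of its neighbours, and last Fosl2 (8.76) and Fosb (7.59), which overlapped. In aged samples the order was Ier3 (4961 CPM per kb), Junb (1033), Fos (695), Jund (276), Jun (227), Atf3 (200.6), Ier2 (140), Egr1 (35.8), Fosl2 (9.21) and Fosb (4.12). By its mean Atf3 stood ahead of Jund and Jun in young samples and behind both in aged samples, but its range overlapped that of Jund in either age and those of Jun and Ier2 in aged samples. Per kb of the mean transcript length, aged Atf3 (271) stood between Jund and Jun. Fos made up between 97.6% and 98.7% of the 3 Fos family genes per kb and Junb between 58.6% and 73.1% of the 3 Jun family genes.

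Ier3 and Fos were also set against each other. The ratio of their levels per kb, Ier3 over Fos, chosen after the values were seen, was 3.65, 1.91 and 3.12 in young and 11.9, 5.31 and 5.94 in aged samples. All aged ratios exceeded all young ones. By the mean transcript length, which is shorter for Fos, they were 1.89, 0.991 and 1.62 in young and 6.15, 2.75 and 3.08 in aged samples, so that Fos lay slightly above Ier3 in young B, and the ages were again separate. The ratio of the summed Fos family to the summed Jun family per kb was 0.655, 0.807 and 0.587 in young and 0.266, 0.608 and 0.594 in aged samples. Aged A was the only sample far from the rest on that ratio, and the ages overlapped (exact two-sided permutation test, p = 0.30).

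**Figure D5:**
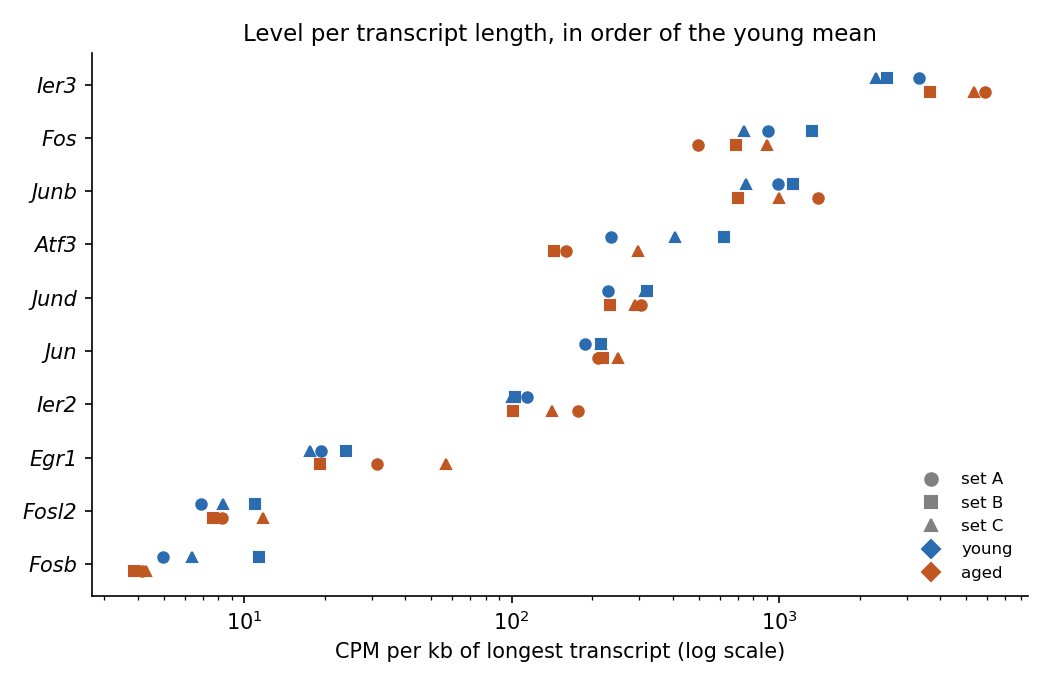
CPM per kb of the longest transcript (horizontal axis, log scale) in each sample, genes ordered by the young mean from bottom to top, with young samples in blue, aged samples in orange and marker shape giving the set letter. By this length Ier3 lies above all other genes in every sample, and Fosl2 and Fosb lie lowest.

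Several of the 10 genes varied widely within an age. The within-age standard deviation of log2 CPM was 0.64 for Atf3 and 0.58 for Egr1, which exceeded that of 97.0% and 96.5% of the 200 genes nearest in mean level, and it was 0.12 for Jun, at the 10th percentile. Egr1 varied more among aged samples (0.78) than among young ones (0.23), and Fosb the other way round. Young B was the highest of the 6 samples for 4 genes (Fos, Fosb, Jund and Atf3), aged A for 3 (Junb, Ier2 and Ier3) and aged C for 3 (Fosl2, Jun and Egr1). Young A was the lowest for Fosl2, Jun and Jund, young C for Egr1, Ier2 and Ier3, aged B for Fosb, Junb and Atf3, and aged A for Fos.

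The mean standardised log2 CPM of the 10 genes was 0.68 in aged C and 0.57 in young B, 0.17 in aged A, and -0.24, -0.51 and -0.67 in young C, young A and aged B. Among 6578 other genes with a mean of at least 10 CPM, the pattern over these 6 samples was most like that of Thap6 (Pearson r 0.99), the MAP kinase phosphatase Dusp1 (0.97), the arrestin-related Arrdc3 (0.96), the acyl-CoA oxidase Acox3 (0.94) and the mitophagy receptor Bnip3l (0.94). These are 5 picked from many over 6 samples that share libraries, and they are given as a description. Dusp1, itself an immediate early gene, was at 1364, 2330 and 1731 CPM in young samples, against 2174, 1504 and 2702 CPM in the aged.

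Markers of other cells were read beside these values. In sorted bulk samples, a change in the number of cells of a type and a change in RNA per cell cannot be told apart. Neutrophil markers, 13 genes including S100a9, encoding a calcium-binding alarmin, and Il1r2, the decoy interleukin-1 receptor, summed to 771, 1159 and 994 CPM in young A, B and C, with 1773, 886 and 1641 CPM in aged A, B and C. They were highest in aged A and C, as were Egr1, Ier2 and Ier3, and 4 of the 13 were called higher and 0 lower (9.73% and 7.97% of all genes tested). The 4 were Cd177 (log2 fold change 1.62), Cxcr2 (1.13), Lcn2 (0.99) and Retnlg (0.85). S100a9 (0.20) and Il1r2 (0.60) were not called, and 12 of the 13 had a positive log2 fold change. The study's sort carried no gate against neutrophils, and the part of neutrophil transcripts in Ier3 was not tested. Aged B, the sample with keratinocyte transcripts (Krt14, a basal keratin, at 80.2 CPM and at most 0.865 CPM elsewhere), also held the highest fibroblast marker sum, 120 CPM against 13.2 to 41.1 CPM. Leaving out aged B gave Egr1 a log2 fold change of 1.13 and an edgeR adjusted p of 0.0225, whereas leaving out aged C gave 0.32 and 0.441, and the other 4 samples left out in turn gave no call. Endothelial markers, such as Kdr and Vwf, were at 2.97 CPM or less in every sample. Mast cell markers summed to 42.6, 22.6 and 12.8 CPM in the young samples and 33.3, 0.764 and 0.679 in the aged ones. Transcripts of mitochondrial genes took 0.863% to 1.44% of counts, with young B highest.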

How the data were processed

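F4/80+ CD64+ macrophages of Day 3 wounds were sequenced after SMART-Seq v4 amplification. The authors aligned reads with STAR 2.7.3a to mm10, quantified Ensembl transcripts in Partek, and deposited expected counts per gene, unnormalised, for genes with a total of at least 10. The second table, with the authors' DESeq2 comparison, was not used.

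Here the expected counts were rounded to whole numbers, since counts had been assumed when the tests were written, and fitted in edgeR 4.0.16 (R 4.3.3): TMM scaling, filterByExpr, quasi-likelihood test of aged against young, Benjamini-Hochberg adjustment over 11878 genes, called at adjusted p under 0.05, with or without an absolute log2 fold change over 1. Log2 CPM used a prior count of 2. DESeq2 1.42.0, limma 3.58.1 (voom with quality weights), other filters and scalings, the set letter as a block and each sample left out were alternatives, and fits dealing with set A were added after the data were seen. The code was tested on simulated data. The 10 genes and all lists were chosen with earlier results of these data known. List genes named are the 3 largest rises and falls called and the 2 most abundant, apart from members that are not reported here, and genes named otherwise were chosen after their values were seen. Positions are the authors' (end taken as the deposited stop minus 1). Precision is limited by 3 samples per age. Flow cytometry, qRT-PCR and wound measurements were not analysed here. Plots used matplotlib 3.10.9.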

Additional observations from a re-analysis of the deposited data

How the results depend on the processing

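The calls among the 10 genes depended on the fit. Genes called higher (1 in the edgeR fit) were 2 with DESeq2 and 2 with limma-voom, where 1 passed 2-fold. Those called lower (0) were 2 with DESeq2, 2 with limma-voom, 1 with at least 10 counts in every sample, 2 with set A as a term and 2 without both set A samples, of which 1, 1 and 2 passed 2-fold with DESeq2, the set A term and without set A. Leaving out 1 sample gave 0 to 2 higher (0 to 2 past 2-fold) and 0 to 2 lower (0 to 2 past 2-fold). Over 14 alternatives the adjusted p was under 0.05 in 10 for Ier3 (0.00189 to 0.134), 6 for Fosb (0.0120 to 0.180), 5 for Atf3 (0.0124 to 0.245), 3 for Egr1 (0.0225 to 0.441) and 0 for the other 6 genes.

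With 1 sample left out, log2 fold changes ran from -1.11 to -0.45 for Fosb, -1.47 to -0.67 for Atf3, 0.32 to 1.13 for Egr1, 0.73 to 1.06 for Ier3, -0.74 to -0.24 for Fos, 0.061 to 0.18 for Jun, 0.21 to 0.61 for Ier2, -0.14 to 0.28 for Fosl2, -0.17 to 0.34 for Junb, -0.21 to 0.051 for Jund, -0.96 to 0.063 for Hspa1a, -0.75 to 0.28 for Hspa1b, -0.084 to 0.52 for S100a9, -1.24 to 1.28 for Col3a1 and -0.74 to 0.034 for Kdr. Without both set A samples Junb was at -0.15 and S100a9 at -0.093. Col3a1, from the fibroblast list, was at -0.37 with limma-voom.

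With 1 sample left out, genes called higher were 0 to 5 of the AP-1 partners, 0 to 7 of the other immediate early genes, 0 to 7 of the MAP kinases and activators, 3 to 11 of the AP-1 targets, 0 to 4 of the heat shock genes and 3 to 16 of the other dissociation genes. Those called lower were 0 to 1 of the other immediate early genes, 0 to 2 of the targets and 0 to 7 of the other dissociation genes. Over all genes, 2103 were called, 218 without young C, 545 without aged C, 765 without young B, 1385 without aged A, 3646 with limma-voom, 2532 with DESeq2, 2781 with set A as a term and 2958 without both set A samples. Past 2-fold, 1044 were called and 213 without young C, 475 without aged C and 521 without young B. limma-voom called 11 of the MAP kinases and activators higher, and lower 1 of the other immediate early genes, 3 targets and 3 other dissociation genes. DESeq2 called 1 heat shock gene higher, and lower 1 of the other immediate early genes and 4 other dissociation genes. Requiring 10 counts in every sample left 2 other dissociation genes lower. With set A as a term, 3 heat shock genes were higher and 3 other dissociation genes lower. Without both set A samples, 5 heat shock genes were higher, and 1 of the other immediate early genes, 1 of the MAP kinases and activators, 2 targets and 6 other dissociation genes were lower. The causes were not tested.

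The set letters were not treated as pairs: same-letter deviations from the age means correlated at 0.18 (A), -0.02 (B) and 0.11 (C) over 11878 genes, and young B and young C correlated best with an aged sample of another letter. With the set letter as a replicate block, 2115 genes were called over all, Ier3 was the 1 of the 10 genes called, neither Fosb (-0.79, edgeR adjusted p = 0.0676) nor Atf3 (-1.03, adjusted p = 0.0581) passed, unlike in the fits dealing with set A alone, 1 AP-1 partner was lower, 1 heat shock gene higher and 2 other dissociation genes lower, and Col3a1 was at -0.20. The block turned the direction of 0 of the 10 genes.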
